A study of Mus musculus with 2 samples.

Results

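The transcripts described here are those that the GENCODE M21 annotation classes as retained introns and that carried at least 3 counts, summed over both libraries. There were 602 of them among 21848 annotated retained-intron transcripts, in an annotation of 141862 transcripts on mouse assembly mm10. The members were chosen by that summed count, so counts, and the levels and shares made of them, are given as a description, and only the division of a count between the libraries is tested. The libraries are long-read RNA sequencing of heart tissue, in which 1 read is meant to cover a whole RNA molecule, and the deposited values are whole reads counted on each transcript model. Both come from 1 group, male B6CASTF1/J mice aged 14 days, an F1 hybrid strain of C57BL/6 and CAST/EiJ parentage, with no treatment or mutation named in the labels. The labels name 3 males per tissue sample without stating whether tissue was pooled, give both libraries the same donor, and start each from 2 µg of total RNA. The tissue descriptions in the labels differ between the libraries, but the free-text description is the same for both and names a single tissue sample and its cDNAs, so differences between replicate 2 and replicate 1 may be technical in part. There is no second condition, and every test below sets replicate 2 against replicate 1.

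Most introns are cut out while the RNA is still being made. An intron that stays in gives a transcript that is often held in the nucleus, or, once in the cytoplasm, destroyed by nonsense-mediated decay if the intron brings a stop codon into the reading frame. Genes of splicing factors and of their kinases are well known for introns that are kept as a means of feedback, and short introns rich in G and C are known to be kept more often than long ones. In an annotation, however, the retained-intron class only says that a transcript holds bases that a coding transcript of the same gene splices out, and such a transcript may be a fragment that begins or ends inside an intron.

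Both situations occurred among the members, and the sequences show the contrast. The first set holds introns that lie whole inside an internal exon of a member, so that the read is spliced on each side and unspliced between. Apart from Rsrp1-204, they are the 7 best-counted members of that kind with an intron of under 250 bases between coding exons that another transcript was seen to splice. Rsrp1-204 has a higher count, and its sequence is not reported here. Coordinates are the intron's own on mm10, 1-based, and sequences are read 5′ to 3′ from the GENCODE M21 transcripts, with 12 exon bases on each side. Capitals mark the first and last 2 bases of the intron and, where there is one, the first stop codon met when translation runs on from the upstream exon.
Tesc-203 intron at chr5:118056439-118056536, plus strand: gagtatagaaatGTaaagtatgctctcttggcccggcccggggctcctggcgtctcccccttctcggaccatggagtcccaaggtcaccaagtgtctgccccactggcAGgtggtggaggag
Mdp1-202 intron at chr14:55660099-55660167, minus strand: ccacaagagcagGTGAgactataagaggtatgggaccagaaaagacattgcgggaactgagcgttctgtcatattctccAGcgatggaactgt
Chkb-208 intron at chr15:89428545-89428713, minus strand: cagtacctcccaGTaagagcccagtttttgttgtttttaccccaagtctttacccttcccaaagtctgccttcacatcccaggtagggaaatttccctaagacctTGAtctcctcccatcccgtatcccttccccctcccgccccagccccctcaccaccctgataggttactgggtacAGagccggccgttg
Ppdpf-206 intron at chr2:181187737-181187808, plus strand: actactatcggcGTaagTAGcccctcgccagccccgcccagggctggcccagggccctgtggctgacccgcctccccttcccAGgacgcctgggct
Alkbh6-202 intron at chr7:30312389-30312590, plus strand: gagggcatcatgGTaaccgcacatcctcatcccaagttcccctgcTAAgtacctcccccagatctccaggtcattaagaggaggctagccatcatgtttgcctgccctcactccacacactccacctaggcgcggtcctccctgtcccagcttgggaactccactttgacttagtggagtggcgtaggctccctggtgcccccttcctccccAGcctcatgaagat
Fdx1l-203 intron at chr9:21073182-21073263, minus strand: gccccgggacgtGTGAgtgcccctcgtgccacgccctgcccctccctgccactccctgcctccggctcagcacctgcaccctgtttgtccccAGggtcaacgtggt
Stub1-206 intron at chr17:25831366-25831543, minus strand: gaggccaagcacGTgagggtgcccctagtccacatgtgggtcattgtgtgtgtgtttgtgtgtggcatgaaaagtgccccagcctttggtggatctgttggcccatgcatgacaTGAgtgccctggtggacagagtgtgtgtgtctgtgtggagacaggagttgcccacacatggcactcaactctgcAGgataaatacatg

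All 7 introns began with GT and ended with AG. The stop overlapped the donor site itself in Mdp1-202 and Fdx1l-203, where GTGA holds both the GT and an in-frame TGA that starts at intron base 2. In Ppdpf-206 a TAG started at base 6, in Alkbh6-202 a TAA at base 34, in Chkb-208 a TGA at base 94 and in Stub1-206 a TGA at base 103. The Tesc-203 intron of 98 bases held no stop in the incoming frame, and as its length is not a multiple of 3 it would shift the frame after it.

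The second set shows where longer introns were kept in genes that make or control splicing factors. Only the 12 last exon bases and the first 100 intron bases are given, in the same capitals.
Clk1-212 intron start at chr1:58420983-58421082, minus strand: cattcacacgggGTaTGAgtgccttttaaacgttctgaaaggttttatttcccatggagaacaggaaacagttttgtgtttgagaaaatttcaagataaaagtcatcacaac
Srsf5-212 intron start at chr12:80947866-80947965, plus strand: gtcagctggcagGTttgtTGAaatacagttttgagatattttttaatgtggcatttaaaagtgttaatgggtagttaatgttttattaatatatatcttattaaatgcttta
Srsf7-207 intron start at chr17:80205162-80205261, minus strand: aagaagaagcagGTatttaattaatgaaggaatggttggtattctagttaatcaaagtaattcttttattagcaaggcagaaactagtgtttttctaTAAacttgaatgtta

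In each of the 3 an in-frame stop fell within the bases shown, at intron base 4 in Clk1-212, 7 in Srsf5-212 and 86 in Srsf7-207. The third set is of the other kind. It holds all of the intronic bases that make 3 highly counted members retained-intron transcripts, namely those at the start of their first exon, followed by 12 bases of the exon proper, with the acceptor AG in capitals.
Cox4i1-204 intronic bases at chr8:120672590-120672724, plus strand: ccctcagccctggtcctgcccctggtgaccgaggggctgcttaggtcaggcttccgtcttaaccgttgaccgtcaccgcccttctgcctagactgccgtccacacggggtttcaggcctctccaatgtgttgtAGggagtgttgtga
Fxyd1-213 intronic bases at chr7:31052178-31052193, minus strand: atctgttcctttttAGaactggggaacc
Sparc-205 intronic bases at chr11:55402072-55402165, minus strand: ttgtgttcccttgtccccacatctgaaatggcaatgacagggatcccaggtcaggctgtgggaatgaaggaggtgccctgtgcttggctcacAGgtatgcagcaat

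Against Cox4i1-201, Cox4i1-204 held 135 bases from the end of an intron of 3342 bases, and from there on was spliced like it. Fxyd1-213 held 16 bases of an intron of 847 bases, and Sparc-205 held 94 of 3108. None of these 3 members spans a whole intron.

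Sorted by how they cover an intron, few members kept a complete intron between spliced neighbours. An internal exon covered a whole annotated intron, with at least 10 exon bases on each side, in 79 members (13.1%), which held 808 of 17211 member counts (4.69%). In 140 members the whole intron lay in the first or last exon, and these held 1378 counts. In 276 members only part of an intron was covered by a first or last exon. Those 276 held 13940 counts, or 81.0% of all member counts. The remaining 107 members had a single exon, and held 1085 counts. Exons of another annotated gene, on either strand, were overlapped by 128 of the 602 members. These included 26 of the 79 with an internal exon over an intron, among them Mdp1-202.

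**Figure D1:**
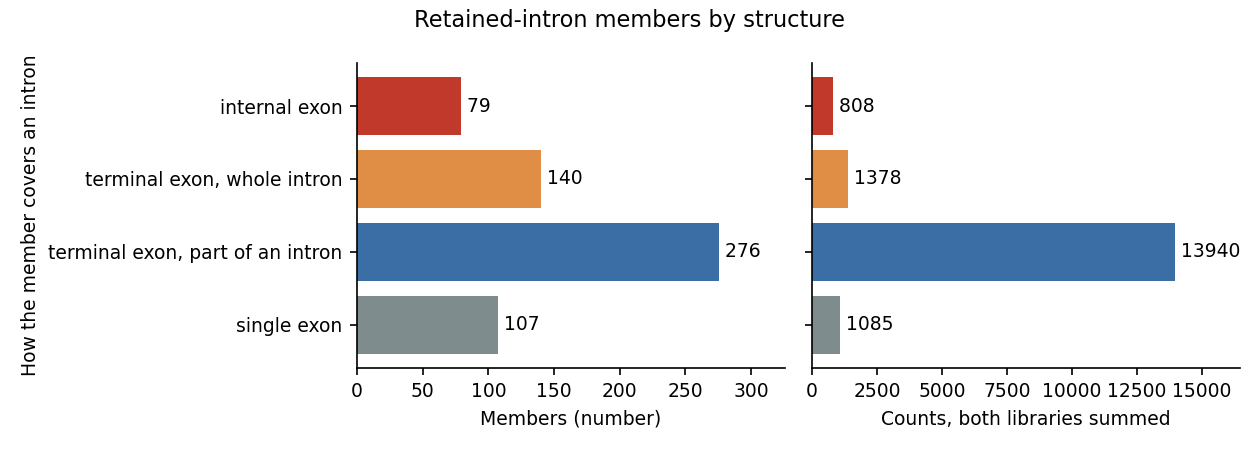
Number of members (left) and their counts summed over both libraries (right), by how the member covers an intron. Internal-exon members are 79 of 602, and members that cover part of an intron with a terminal exon hold 13940 counts.

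Cox4i1-204 alone carried 51.7% of all member counts, and the 10 highest members 67.9%. Members took 0.869% of annotated counts in replicate 2 (7435 of 856013, exact Clopper-Pearson 95% interval 0.849 to 0.888) and 1.14% in replicate 1 (9776 of 854401, interval 1.12 to 1.17). Without Cox4i1-204 the shares were 0.466% in replicate 2 and 0.505% in replicate 1. Internal-exon members took 0.0502% in replicate 2 (interval 0.0456 to 0.0552) and 0.0442% in replicate 1 (interval 0.0399 to 0.0489), which overlap. Without molecular identifiers the reads may include PCR copies, so these intervals cover counting error only.

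Of the 495 members with 2 or more exons, 407 (82.2%) had an intron chain that was an unbroken piece of the chain of another annotated transcript that is not a retained-intron transcript. In 306 of them the piece was the 3′ end of the longer chain, in 96 the 5′ end. For the other classes, too, the longer chain had to belong to a class other than their own. This held for 1.53% of multi-exon protein_coding transcripts of 3 or more counts, 4.04% of nonsense_mediated_decay transcripts and 26.1% of processed_transcript transcripts. It leaves out protein_coding chains that are pieces of other protein_coding chains, so the 1.53% is not like for like with the 82.2%. A single exon was likewise found in 17.8% of members, against 2.29% of the protein_coding class. The classes are the annotation's own, and these shares describe it as sampled by these libraries. The files hold models and counts rather than reads, so for the 407 members a read that stopped early and an RNA that began or ended there cannot be told apart.

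Among internal-exon members, Rsrp1-204 had the highest count. It had 111 counts in replicate 2 and 104 in replicate 1, or 101 ± 4.28 CPM (counts per 1000000 on reference genes, SD, n = 2), and 39.2% of the gene's annotated counts. Rsrp1 encodes an arginine- and serine-rich protein related to the splicing factors of that type. The most spliced of the introns it keeps was spanned in 112 and spliced exactly in 193 counts in replicate 2, and spanned in 114 and spliced in 150 in replicate 1. Its retention, the spanning counts as a share of both, was therefore 36.7% in replicate 2 and 43.2% in replicate 1, and 39.7% when summed (exact 95% interval 35.7 to 43.9). Nearly all of it was the member itself, since without the member's own counts 3.11% was left.

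Clk1-212, from the gene of a kinase that phosphorylates SR splicing factors, kept introns 3 and 4 of Clk1-201 together. It carried 8 counts in replicate 2 and 6 in replicate 1, and retention of intron 3 was 60.0% in replicate 2 (9 spanning, 6 spliced) and 42.9% in replicate 1 (6 spanning, 8 spliced). These are few counts, with a summed interval of 32.5 to 70.6%. Srsf5-212 differed in that its own counts were only 5 in replicate 2 and 3 in replicate 1, while intron 5 of Srsf5-201, 1229 bases at chr12:80947866-80949094, was spanned in 43 counts and spliced in 46 in replicate 2, and spanned in 33 and spliced in 64 in replicate 1. Other models of Srsf5, which encodes an SR splicing factor, thus held 68 of the 76 spanning counts, and retention was 40.9% with the member and 38.2% without it. Srsf7-207, from another SR gene, kept intron 3 of Srsf7-201, with a retention of 22.2% in replicate 2 and 27.0% in replicate 1.

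The short introns printed above had retention from 4.11% to 46.2%. Any model with an exon over the intron counted as spanning, first and last exons included. These values hold the member's own counts, by which the set was chosen. The highest was in Ppdpf-206, where intron 2 of Ppdpf-201 was spanned in 27 and spliced in 25 counts in replicate 2, and spanned in 28 and spliced in 39 in replicate 1. Of these spanning counts, 25 over both libraries lay on Ppdpf-205, which covers the intron with its first exon and so is not spliced before it. Chkb-208, from the gene of choline kinase beta, an enzyme of phospholipid synthesis with a known role in skeletal muscle, was lower, with 33.8% in replicate 2 (25 spanning, 49 spliced) and 25.3% in replicate 1 (22 spanning, 65 spliced). Of its spanning counts over both libraries, 32 were the member's own. In Tesc-203, from the gene of the calcium-binding protein tescalcin, retention was 13.9% in replicate 2 and 12.3% in replicate 1. In Mdp1-202, from the gene of a magnesium-dependent phosphatase, it was 16.7% in replicate 2 and 12.7% in replicate 1. Alkbh6-202, of an AlkB family gene, had a summed retention of 30.8%, and Fdx1l-203, of a mitochondrial ferredoxin gene, 37.1%. Stub1-206, from the gene of the ubiquitin ligase CHIP, stood at the low end, with 3.75% in replicate 2 and 4.42% in replicate 1. Rpl3-204, from the gene of a protein of the large ribosomal subunit, was lower still at 1.14%, and with 1299 splicing counts it was the best-covered value of those given here.

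**Figure D2:**
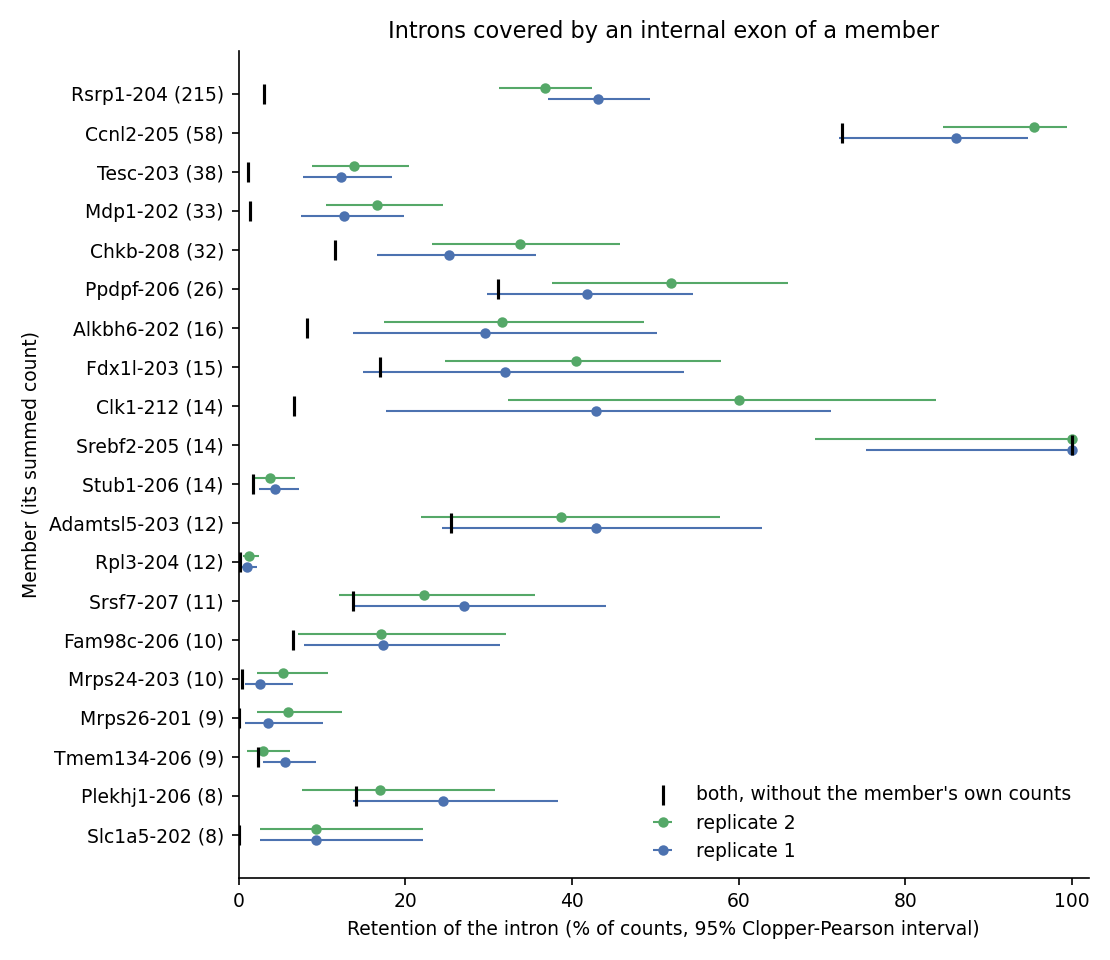
Retention of the most spliced intron covered by an internal exon, for the 20 members of highest count with at least 20 counts on the intron. Green (replicate 2) and blue (replicate 1) points carry exact 95% intervals, and the black tick is the retention of both libraries without the member's own counts. Rsrp1-204 and Clk1-212 lose most of their value without the member, Srebf2-205 stays at 100%.

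A retention value depends on which transcript defines the intron. Srebf2-205, in the gene of a sterol-regulated transcription factor, shows this, since the 120 bases it keeps are an intron in Srebf2-203 and no count spliced them, against 23 that spanned them. For Ccnl2-205, from the gene of a cyclin that takes part in splicing, the most spliced intron it covers had a retention of 90.8% over 87 counts, while 37 counts in replicate 2 and 31 in replicate 1 lay on Ccnl2-201, whose other splice sites count for neither side. Taking for each internal-exon member the covered intron with the most splicing counts, 70 introns had 20 or more counts. Their median retention was 7.93%, with quartiles of 3.79 and 22.3%, and 2.71% when the member's own counts were left out. In 60 of the 70, some other model also spanned the intron, which could be another member of the gene.

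Over all introns that members cover whole, 359 had 20 or more counts, and their median retention was 11.8%. Without the member's own counts the median was 1.54%, and 113 of the 359 stood at 0. The other annotated introns of the members' genes had a median of 0% (4114 introns), and 1.99% of them reached a retention of 10%. Of all 68736 annotated introns with that coverage, 2.44% reached it. The members were chosen for having counts, which raises their own introns' retention, so no test is given for that contrast, and the value without the member is the one free of its counts.

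The introns covered whole were short. Those of the 359 had a median of 197 bases, against 948 for other introns of the same genes and 1142.5 for all introns. Before any minimum on splicing, members covered 507 annotated introns, with a median of 226 bases and a median GC content of 55.3%. Annotated retained introns of transcripts that are not members, in genes of 20 or more counts, numbered 5858, with a median of 272 bases and 51.0% GC. GT and AG bounded 488 of the 507. Some annotated introns are no real introns, such as gaps of 1 base that the annotation writes in Srcap and Tmem134 transcripts.

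Read in the frame of the coding transcript, most kept introns brought a stop. Of the 89 introns in internal exons that lie between coding exons with a known frame, 76 held an in-frame stop, and its first base lay at a median of 43 bases into the intron. The other 13 held none, and in 3 of these the length was a multiple of 3. Over members of all structures the count was 276 of 322. This describes sequence only, and decay of these transcripts was not measured. The same numbers were not worked out for introns that no member covers. A stop is therefore not shown to be more frequent in the members' introns than in others.

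In the 12 members of highest count, apart from Rsrp1-204, Pgp-202 and Trdn-204, reads covered 3′ parts of a longer chain. In the 4 genes described first, the best-counted member had more counts than the 3′ parts next to it. Other annotated 3′ parts of these genes, such as Sparc-203, did not. Cox4i1 encodes subunit 4 of cytochrome c oxidase, the last complex of the respiratory chain. A complete chain, here and below, is that of 1 annotated transcript. It is the best-counted of those that hold the member's chain and are not retained-intron transcripts, so other forms of the gene are not in it. On the 4 introns of Cox4i1-201, the complete chain had 2478 counts in replicate 2 and 3136 in replicate 1. Splicing of introns 2 to 4 only had 58 counts in replicate 2 and 82 in replicate 1. Splicing of introns 3 and 4 only, which is Cox4i1-204, had 3443 in replicate 2 and 5462 in replicate 1, and intron 4 only had 11 in replicate 2 and 13 in replicate 1. The 3′ part with the most counts was thus Cox4i1-204, in both libraries. The parts next to an annotated one are often new models, whose counts may be understated if the authors filtered new models more strictly than annotated ones, which the sources used do not state.

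Fxyd1, which encodes phospholemman, a regulator of the sodium pump in heart muscle, had the same form. Fxyd1-213, with introns 6 and 7 of 7, had 284 counts in replicate 2 and 582 in replicate 1, while the complete chain had 110 in replicate 2 and 163 in replicate 1. No other 3′ part passed 11 counts in a library. In Rpl5, a gene of the large ribosomal subunit, Rpl5-204 had 184 counts in replicate 2 and 235 in replicate 1, the complete chain 60 in replicate 2 and 69 in replicate 1, and no other 3′ part passed 3. Rpl5-204 holds 603 intronic bases and overlaps exons of another annotated gene.

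Sparc, which encodes a collagen-binding matrix protein, had counts on more of its 3′ parts. Its complete chain of 9 introns had 502 counts in replicate 2 and 505 in replicate 1. The last 6 introns had 125 in replicate 2 and 86 in replicate 1, the last 5 had 99 in replicate 2 and 70 in replicate 1, and the last 4, which is Sparc-205, had 305 in replicate 2 and 329 in replicate 1. Sparc-203, with the last 3, had 37 in replicate 2 and 49 in replicate 1, and the last 2, which no annotated transcript has, had 95 in replicate 2 and 91 in replicate 1. Sparc-205 was the highest 3′ part here too, but below the complete chain, and new models with counts lay on both sides of the annotated ones.

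**Figure D3:**
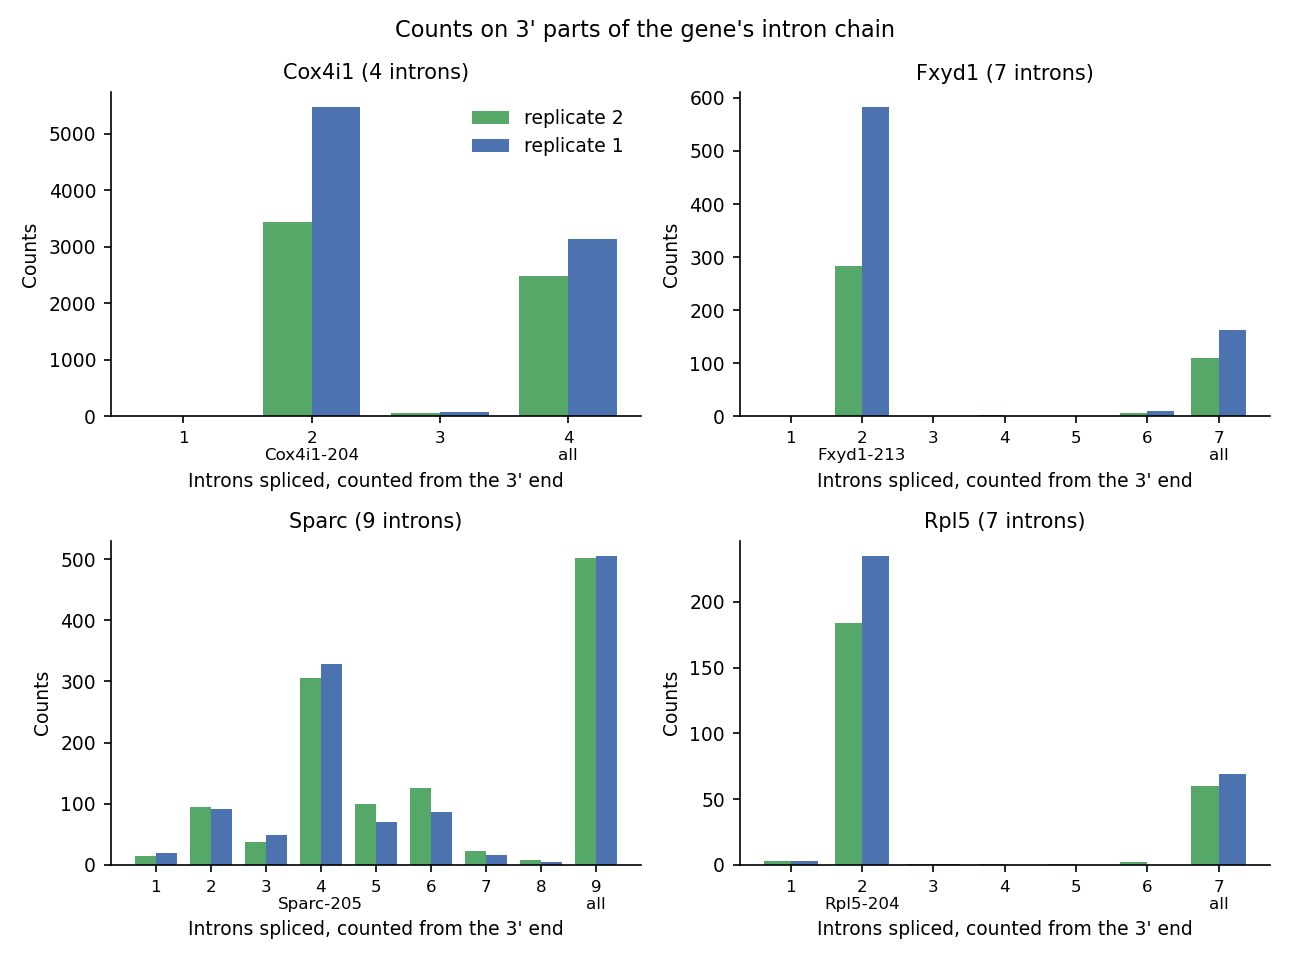
Counts of models whose introns are the last 1, 2, 3 and so on of the complete chain, in replicate 2 (green) and replicate 1 (blue), for 4 genes. The complete chain is that of 1 annotated transcript, the best-counted of those that hold the member's chain and are not retained-intron transcripts. The annotated retained-intron member is named under its bar, and in Cox4i1, Fxyd1 and Rpl5 it is higher than the complete chain.

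Other members of high count stood on either side of their complete chain. In Ift81, a gene of intraflagellar transport in cilia, Ift81-203 had 50 counts in replicate 2 and 46 in replicate 1, above the complete chain with 22 in replicate 2 and 18 in replicate 1. In Stau1, which encodes a protein that binds double-stranded RNA, Stau1-209 had 46 in replicate 2 and 52 in replicate 1, against 29 in replicate 2 and 27 in replicate 1 on the complete chain. Ank-202, Fh1-203 and Cyc1-204 stood below their complete chains. For Fh1, the gene of fumarate hydratase of the citric acid cycle, that was 85 in replicate 2 and 103 in replicate 1 on the member, against 1438 in replicate 2 and 1338 in replicate 1 on the complete chain.

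Over the 306 members that are a 3′ part, 136 could have a 3′ part 1 intron shorter and 1 intron longer. Of these, 98 (72.1%) had more counts than either neighbour. Their median was 5 counts, against 1 for the shorter and 1 for the longer neighbour, and 30 had neighbours without any count. Membership needs 3 counts and the neighbours need none, so this is a description and not a test, and the limit on new models given above applies to it. Counting each part once for each longer transcript, annotated 3′ parts of these chains held 15967 counts and new models, as deposited, 13453. A part shared between longer transcripts of a gene may be in these totals more than once.

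Single-exon members covered introns without any splicing that would show the read to come from processed RNA. Pgp-202, in the gene of phosphoglycolate phosphatase, carried 56 counts in replicate 2 and 58 in replicate 1, and spans the only intron of Pgp-201, of 92 bases at chr17:24471150-24471241. That intron was spliced in 177 counts in replicate 2 and 185 in replicate 1, which gives a retention of 24.0% over both, and no other model spanned it. Ss18l2-207 had 30 in replicate 2 and 45 in replicate 1, and Trdn-204, in the gene of triadin of the calcium release complex of heart muscle, 51 in replicate 2 and 54 in replicate 1. Trdn-204 spans no whole intron. It lies inside an intron of Trdn-206, as 1665 bases of a single exon, and 61 of the 107 single-exon members likewise spanned no whole annotated intron. Of the single-exon members' introns with 20 or more counts, taking the most spliced one of each, 25 of 37 were spanned by no other model. Genomic DNA and unspliced precursor as sources of these reads were not tested.

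As a share of their gene, most members were small. In the 506 members whose gene had at least 20 annotated counts, the median share was 3.88%, with quartiles of 1.31 and 11.6%. The share was under 1% in 97, at least 10% in 146 and at least 50% in 20. In 23 the member was the gene's most abundant annotated transcript, among them Cox4i1-204 with 60.8%, Fxyd1-213 with 62.2% and Rpl5-204 with 75.6%. The share falls with the gene's count because a member needs 3 counts, so a low share is only visible in a well-counted gene. The 502 members in the share test described below had a median share of 3.83%, against 58.6% for the protein-coding transcripts in it.

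**Figure D4:**
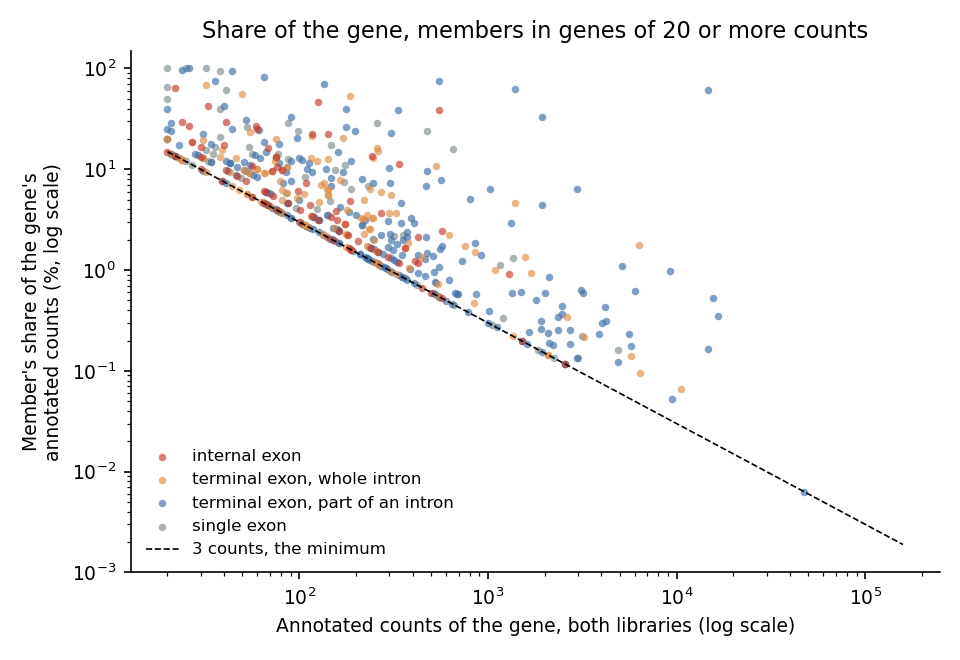
Each member's share of its gene's annotated counts against the gene's annotated counts, both on log scales, coloured by structure, for the 506 members in genes with at least 20. The dashed line is the share of a member at the minimum of 3 counts, below which no point can lie.

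A high share did not always mean a high part of the gene's RNA, since new models are outside the annotated counts. Tnni3, the gene of cardiac troponin I, shows it. Tnni3-204 had 24 counts in replicate 2 and 29 in replicate 1, or 81.5% of the annotated counts, but 6.18% of the counts of all models of Tnni3. The complete annotated chain Tnni3-201 had 0 counts in either library, and the 3′ part with the last 3 introns, which no annotated transcript has, had 23 in replicate 2 and 28 in replicate 1. Car14-204, in the gene of a membrane carbonic anhydrase, went further, with 100% of the annotated counts and 2.71% of all. For Cox4i1-204 the denominator hardly mattered, at 60.8% of annotated and 59.7% of all counts.

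Most members had too few counts for a close comparison of the libraries, since an even division of 3 counts alone places most of them in both. Both libraries held 534 of the 602, while 41 were seen in replicate 2 only and 27 in replicate 1 only, none of these with more than 7 counts. That was 88.7% of members, against 95.4% of all 14612 annotated transcripts of 3 or more counts. All those transcripts had a median of 18 counts, against 5 for members. The nonsense_mediated_decay class, also at a median of 5 counts, had 85.3% in both, and the processed_transcript class, at 6, had 91.9%. Of the 174 members at exactly 3 counts, 126 were in both. Just outside the rule, 345 retained-intron transcripts had 2 counts, 173 of them 1 in each library, and 1047 had 1 count. Across members, log2 CPM + 1 in replicate 2 and in replicate 1 had a Pearson r of 0.70 and a Spearman rho of 0.41, and r was 0.88 over the 148 members of 10 or more counts. The points share both libraries and their depth, and sum to the value that chose them, so no p is given.

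The count of each annotated transcript was tested between the libraries by a two-sided exact binomial test, with Benjamini-Hochberg adjustment over 14612 transcripts of 3 or more counts. It called 3 of the 602 members at an adjusted p under 0.05, where 1.49% of all transcripts tested were called. All 3 were lower in replicate 2, a direction called in 0.869% of all transcripts, and the opposite direction, called in 0.623%, had 0 members. At an unadjusted p under 0.05 there were 22 of the 602 members. The share of all transcripts at that threshold was not worked out, so this count is not read as a result. The test holds counting error only, and with 2 libraries no spread between animals can be set against it. An edgeR exact test, with the dispersion taken from the same 2 libraries, called 0 members.

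Cox4i1-204, at 3443 counts in replicate 2 and 5462 in replicate 1, averaged 4196 ± 1360.3 CPM (SD, n = 2), and its log2 ratio of replicate 2 over replicate 1 was -0.67 (adjusted p = 6.99e-101, exact binomial test). Fxyd1-213 had a log2 ratio of -1.04 (adjusted p = 8.92e-22, same exact test) and averaged 408 ± 200.0 CPM. Hba-a1-202, in an alpha-globin gene of red blood cells, had 26 counts in replicate 2 and 57 in replicate 1, with a log2 ratio of -1.11 (adjusted p = 0.0437, same exact test). Hba-a1 has a near-identical copy, Hba-a2, so the division of reads between them is uncertain. Sparc-205, at 299 ± 17.1 CPM, Rpl5-204, at 197 ± 34.7, and Rsrp1-204 did not pass the test.

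Other measures moved between the same libraries. The 5 red blood cell markers summed to 1.28% of reference gene counts in replicate 2 and 1.73% in replicate 1, with all 5 lower in replicate 2, and Hba-a1-201, the spliced transcript, had 6528 counts in replicate 2 and 9065 in replicate 1. The 5 atrial cardiomyocyte markers summed to 0.120% in replicate 2 and 0.488% in replicate 1, also all lower in replicate 2. The 7 cardiomyocyte markers summed to 3.63% in replicate 2 and 3.43% in replicate 1, with 2 of them higher in replicate 2 and 5 lower, so the defining markers of heart muscle were present in both. Counts on the 6 lymphocyte and thymus markers summed to 86 in replicate 2 but 3 in replicate 1, and the 4 lung markers stood at 0. Short transcripts were lower in replicate 2, with a median log2 ratio of -0.38 for annotated transcripts of under 500 bases and 10 or more counts, and -0.23 for the 15 members among them. Over all 44 members of under 500 bases the median was -0.06, against -0.28 over all annotated transcripts of that length with 3 or more counts. With the trend on transcript length removed, the log2 ratio of replicate 2 over replicate 1 was -0.33 for Cox4i1-204 (adjusted p = 3.73e-23, exact binomial test), -0.39 for Fxyd1-213 (adjusted p = 0.0217, same exact test) and -0.72 for Hba-a1-202 (adjusted p = 0.666, same exact test), so that Hba-a1-202 was no longer called. The part of cell makeup was not tested, and in bulk tissue fewer cells of a type and less RNA per cell cannot be told apart.

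**Figure D5:**
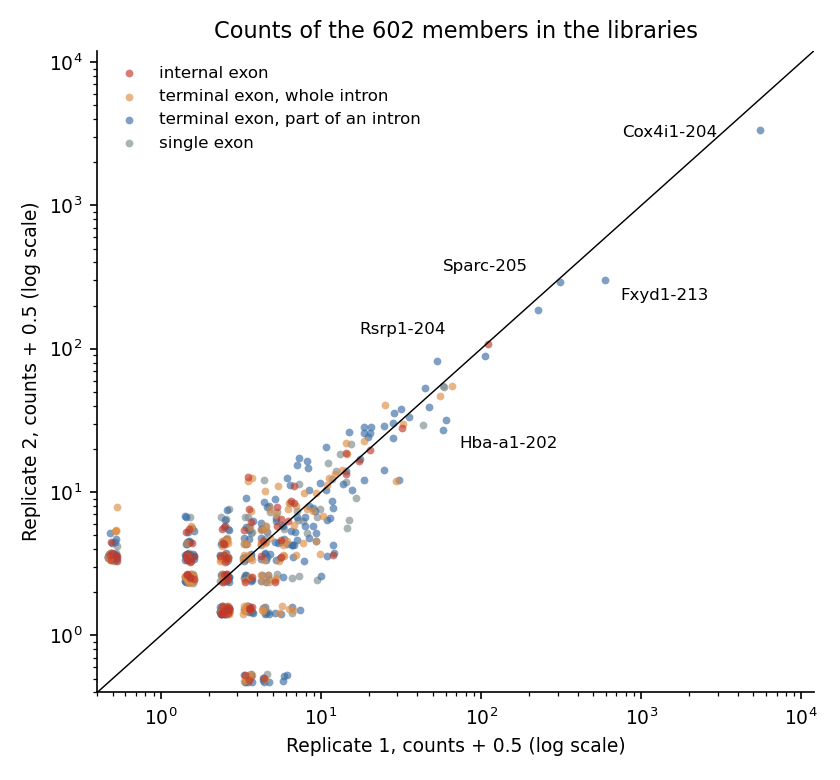
Counts of each member in replicate 2 (vertical) and replicate 1 (horizontal), with 0.5 added and a slight jitter, on log scales, coloured by structure. The line marks equal counts, and Cox4i1-204, Fxyd1-213 and Hba-a1-202 lie below it.

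As a share of the gene's annotated counts, which leaves out changes of the whole gene, 1 of 502 members tested differed by Fisher's exact test with adjustment over 7372 transcripts, where 0.0407% of all were called. That was Cox4i1-204, lower in replicate 2, a direction called in 0.0136% of all transcripts tested, while 0 members were called in the opposite direction (0.0271%). It stood at 57.7% in replicate 2 and 63.0% in replicate 1 (adjusted p = 3.77e-07, Fisher's exact test). At an unadjusted p under 0.05 there were 15 of the 502 members tested. Here too the share of all transcripts was not worked out, and the count is not read as a result. Fxyd1-213 made up 56.7% in replicate 2 and 65.2% in replicate 1 (adjusted p = 0.605, Fisher's exact test), and passed the threshold when all models of the gene were the denominator (adjusted p = 0.0472, same exact test). For the 61 members of 20 or more counts in this test, the share differed between the libraries by a median of 2.58 percentage points and by 22.3 at most. Over 67 internal-exon introns with 10 or more counts in each library, retention differed by a median of 2.67 percentage points and by 33.3 at most. Pearson r was 0.94 and Spearman rho 0.84. The median retention of such introns with 20 or more counts over both libraries was 7.93%, so the differences are not small beside it.

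Members fell on 550 genes, or 3.38% of the 16269 reference genes with counts, and 46 genes had more than 1. Only 7879 of the 16269 had an annotated retained-intron transcript and so could hold a member. Gene lists differed in what kind of member they held, and the lists of RNA processing also differed from each other. Of 22 detected genes for SR proteins, their kinases and coactivators, 5 had a member, and of their 6 members 4 covered a whole intron with an internal exon (Clk1-212, Srsf7-207, Srsf7-206 and Srsf5-212). Over all members that kind made up 13.1%. The spliceosome core had 1 of 6 members of that kind, and hnRNPs and other splicing regulators 0 of 7. Genes of nonsense-mediated decay and the exon junction complex had 0 of 3. Of 75 nuclear genes of oxidative phosphorylation, 23 had a member, and 0 of their 26 members were of that kind, while 23 were a piece of another transcript's chain. The 17 of 109 genes of the cytosolic ribosome and translation factors had 19 members, 2 of them internal. Of 46 genes of glycolysis and the tricarboxylic acid cycle, 14 had a member, with 1 of 18 internal. No test was run on these lists, in which well-counted genes reach 3 counts more readily. The lists also differed in how many of their genes had an annotated retained-intron transcript. These were 20 of the 22 for SR proteins, their kinases and coactivators, and 45 of the 75 for oxidative phosphorylation.

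The lists also differed in how much of their annotated counts members took. It was 5.01% for oxidative phosphorylation, which rests on Cox4i1-204, 4.86% for the extracellular matrix, which rests on Sparc-205, and 3.46% for calcium handling and ion channels, with Fxyd1-213 and Trdn-204 as its highest. For SR proteins and their partners it was 2.53%, and for the ribosome 1.48%. At the low end, sarcomere and Z-disc genes had 0.0646% on 4 members, 2 of them from Tnni3, and fatty acid oxidation genes 0.0560% on 5, the highest being Slc27a1-205, with 3 counts in replicate 2 and 11 in replicate 1, and Acadm-203, with 2 in replicate 2 and 10 in replicate 1. The spliceosome core had 6 of 46 genes with a member, led by Prpf31-205 and U2af1-204, and hnRNPs and other splicing regulators 6 of 48, led by Rbm38-202 and Rbm38-203. The 19 genes of nonsense-mediated decay and the exon junction complex had 3 with a member, led by Upf3a-202 and Rnps1-207, and clock and immediate early genes had 3 of 24, led by Tef-207 and Dbp-205. Members of the lists that passed the count test were Cox4i1-204 and Fxyd1-213.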

How the data were processed

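Heart tissue of 1 group was measured in 2 libraries, numbered biological replicate 1 and 2 by the labels. Whole-number counts of reads per transcript model were deposited by the authors without normalization, per the file headers, together with the models of each library on mm10 and GENCODE M21. The aligner, tool versions and model filters were not given in the sources used. Library totals were the counts on reference genes, 1064679 in replicate 2 and 1059016 in replicate 1; models of new genes and spike-ins, 4.14% and 4.39% of all counts, were left out. Annotated transcripts held 80.4% of the reference gene counts in replicate 2 and 80.7% in replicate 1.

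Each member's exons were set against the introns of the other annotated transcripts of its gene. Retention is the count of models with any exon over the intron, first and last exons included, divided by that plus the count of models that splice exactly it. The exact binomial and Fisher's exact tests (scipy 1.17.1, two-sided) were run over all annotated transcripts of 3 or more counts and checked on simulated data; log2 ratios are on CPM plus 1. Alternatives used edgeR 4.0.16 and DESeq2 1.42.0 and are given in the closing section. Sequences come from the GENCODE M21 transcripts, whose exons equal those of the deposited models; the sequence of 1 intron is not reported here.

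Named members were the 12 of highest count, the 10 of highest share, those past a test, the 2 highest of each gene list and those with the shortest and longest introns; internal-exon members, single-exon members and list members beyond these were named after their values were seen. The members and lists were chosen with earlier results of these data known. The labels call the libraries biological replicates and give them different tissue descriptions, but the same donor and the same library description, so whether they came from separate animals is unclear; p-values hold counting error only.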

Additional observations from a re-analysis of the deposited data

How the results depend on the processing

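The 3 calls between the libraries numbered 3 at a minimum of 10 counts, with TMM or DESeq2 scaling, over multi-exon members alone and over members that overlap no exon of another gene. They numbered 2 with no minimum and 2 with the length trend removed, where Hba-a1-202 fell out in both settings; removal of the length trend also brought the log2 ratio of Cox4i1-204 to -0.33 and of Fxyd1-213 to -0.39. The calls numbered 0 in the edgeR exact test with a common dispersion. Over all annotated transcripts that edgeR test called 12, and removal of the length trend 119, against 218 as reported. The share test called 2 members with all models as the denominator, and 1 under its other alternatives; over all transcripts that denominator gave 13 calls, against 3. No value of a named member that had passed a test changed sign.

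The share of annotated counts on all retained-intron transcripts was 1.11% over both libraries, 0.892% with all models of reference genes as the denominator, 0.587% without Cox4i1-204, and 0.978% to 1.24% with either library alone. The median member share of 3.88% became 2.80% at a gene minimum of 50, 5.97% with none, 2.80% of all models, 12.1% for members of 10 or more counts, 3.49% for multi-exon members and 4.84% for internal-exon members, and ran from 3.58% to 3.81% with either library alone. The median retention of 11.8% became 7.74% at a minimum of 50 counts on the intron, 22.9% at 5, 1.54% without the member's own counts, 9.72% with 50 exon bases on each side, 9.09% with annotated transcripts only, 7.32% with the most spliced intron of each member and 13.1% for internal-exon members, and ran from 10.6% to 11.8% with either library alone. The settings without Cox4i1-204, with the most spliced intron and with internal-exon members were chosen after seeing the data.

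No paired analysis was possible because there is 1 group. Leaving out 1 library leaves no test of the other. With a median of 5 counts per member, differences between the libraries of most members were not detectable at this depth.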
